A study of Homo sapiens with 16 samples.

Results

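The genes described here are those whose RNA level stood apart in the shAjuba1 line, against 5 other lines of the same colon cancer cells. A protein-coding gene was taken when its mean level in shAjuba1 was at least 3 times the highest, or at most 0.333 times the lowest, of the 5 other line means, and when the highest of the 6 means reached 2 RPM. RPM are counted reads scaled to a total of 1000000 per sample, and 0.1 RPM was added to each mean before the ratio. Of 19578 protein-coding genes in the counts, 12579 reached the level of 2 RPM in a line, and 30 of them met the rule, 20 higher (0.159%) and 10 lower (0.0795%) in shAjuba1. The genes were chosen by these line means, so levels in shAjuba1 are given as a description and without a test. The genes that led the higher group were LRRC55, ITGB2, KRT17 and MMP9, and those that led the lower group were FGF13, OXGR1 and TNFSF10.

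All 6 lines derive from SW480, an established human colon adenocarcinoma cell line, and the 16 samples were profiled by paired-end RNA sequencing of poly(A) RNA. Parental (n = 2) was the unmodified line, shScrambled (n = 2) carried a lentiviral hairpin of random sequence, and shAjuba1 (n = 3) and shAjuba2 (n = 3) each carried a lentiviral hairpin against AJUBA, directed at the coding and at the non-coding region of its mRNA. Ajuba OE (n = 3) carried a lentiviral AJUBA construct with FLAG and HA tags behind a CMV promoter, and Control (n = 3) the same construct with the AJUBA sequence cut out. The 5 transduced lines were selected with puromycin, and the labels name 1 line per construct, so with these samples a hairpin and the history of its line cannot be told apart. The study speaks of technical replicates, so p-values measure only the spread between these samples. Each sample had 30132396 to 69684675 counted reads. Replicate 2 of shAjuba2, Control and Ajuba OE stood apart. Its median chi-square over genes against the other replicates of its line was 6.31 to 14.3 times that of counting noise. This ratio, on the scale of squared differences, was 4.39 to 5.19 between replicates 1 and 3. In shAjuba1, the same ratio was 5.13 and 5.89 for replicate 3 against replicates 1 and 2, and 1.87 between those.

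AJUBA itself, the target of both hairpins, was at 49.6, 47.3 and 53.5 RPM in the 3 shAjuba1 samples, 50.1 ± 3.12 RPM (SD, n = 3), and at 62.0 ± 5.93 RPM in shAjuba2. It was at 82.5 RPM on average in shScrambled, 90.2 in Parental, 93.2 in Control and 525.9 in Ajuba OE. Of the colon epithelium markers, KRT8 was at 2380 RPM, KRT19 at 431 RPM and VIL1 at 21.1 RPM in shAjuba1. EPCAM was at 73.4 RPM and CDX2 at 8.52 RPM, against 69.8 to 208 and 9.39 to 24.3 RPM in the other line means. KRT20 and CDX1 were low at 0.29 and 0.0279 RPM, against 0.174 to 0.401 and 0 to 0.0374 RPM. MUC2 was at 0.945 RPM, against 0.271 to 0.328 RPM.

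AJUBA is a LIM-domain scaffold protein of cell junctions and cytoplasm that also enters the nucleus, where LIM proteins of this family act as corepressors. It is known to bind LATS kinases and so to touch the Hippo pathway, which controls the coactivators YAP and TAZ. Several of the genes described here belong to families best known from immune cells, such as leukocyte integrins, ligands of the tumour necrosis factor (TNF) superfamily, which signal by cell contact or after shedding, and cytokines that bind receptors on neighbouring cells.

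LRRC55 stood far apart from the rest. It encodes an auxiliary subunit of large-conductance potassium channels (ENSG00000183908, chr11:57181747-57191717, plus strand). It was at 10.3, 10.4 and 9.14 RPM in the 3 shAjuba1 samples, 9.94 ± 0.70 RPM (SD, n = 3). The other samples held 0.199 and 0.149 RPM in Parental, 0.11 and 0.0994 RPM in shScrambled and 0.172, 0.135 and 0.103 RPM in shAjuba2, with 0.117, 0.0816 and 0.273 RPM in Control and 0.258, 0.146 and 0.226 RPM in Ajuba OE. Every sample outside shAjuba1 thus lay at or below 0.273 RPM, and the ratio to the nearest line, Ajuba OE, was 32.4. In bulk RNA, more cells that hold a transcript and more transcript per cell cannot be told apart.

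Subunits of leukocyte integrins came next. ITGB2 encodes the beta subunit CD18 (ENSG00000160255, chr21:44885953-44931989, minus strand), and ITGAM encodes CD11b, one of the alpha subunits that pair with it (ENSG00000169896, chr16:31259967-31332892, plus strand). The pair forms the complement receptor Mac-1 of myeloid cells. ITGB2 was at 10.9, 10.5 and 12.6 RPM in shAjuba1, at 1.42, 1.6 and 1.46 RPM in shAjuba2 and at 0.439 and 0.537 RPM in shScrambled. Parental held 0.898 and 1.14 RPM, Control 0.612, 0.755 and 0.82 RPM and Ajuba OE 0.488, 0.333 and 0.226 RPM. The shAjuba2 samples were the next highest, and the ratio to that line, with 0.1 RPM added to each mean, was 7.17. ITGAM was at 2.89, 3.12 and 3.97 RPM in shAjuba1 and at 0.274 to 0.855 RPM (median 0.455) in the other 13 samples, a ratio of 4.38 to Ajuba OE. Per kilobase of merged exons the shAjuba1 means were 1.55 RPM for ITGB2 and 0.585 RPM for ITGAM, so the beta subunit was the more abundant of the pair on that scale. An antisense gene, ITGB2-AS1, overlaps ITGB2 and was at 26.0 RPM in shAjuba1 against 1.62 to 6.63 RPM in the other line means. The library kit marks strand, but the strand setting of the counting is not given in the sources used here, so the reads of this overlap are uncertain.

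The start regions of LRRC55 and ITGAM are shown because these are the leading gene and the integrin subunit whose start the RefSeq table (GRCh38.p14) holds. Each run covers 250 bases before to 50 bases after the annotated start, for LRRC55 chr11:57181703-57182002, plus strand and for ITGAM chr16:31259725-31260024, plus strand. Capitals mark matches on either strand to any of 6 short motifs, of which the CCAAT box is spelled by its name. The TATA box was read as TATAAA and the GC box as GGGCGG. The TEAD-type motif was read as GGAATG, the AP-1 motif as TGANTCA and the interferon response type motif as 2 copies of GAAA with 2 free bases between them. Matches that overlap each other were merged into 1 stretch of capitals.
LRRC55: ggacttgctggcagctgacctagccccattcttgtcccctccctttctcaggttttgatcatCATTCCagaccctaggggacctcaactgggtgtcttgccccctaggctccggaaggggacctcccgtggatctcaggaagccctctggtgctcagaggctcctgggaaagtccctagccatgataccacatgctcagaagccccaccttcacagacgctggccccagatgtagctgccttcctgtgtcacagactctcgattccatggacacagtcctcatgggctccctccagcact
ITGAM: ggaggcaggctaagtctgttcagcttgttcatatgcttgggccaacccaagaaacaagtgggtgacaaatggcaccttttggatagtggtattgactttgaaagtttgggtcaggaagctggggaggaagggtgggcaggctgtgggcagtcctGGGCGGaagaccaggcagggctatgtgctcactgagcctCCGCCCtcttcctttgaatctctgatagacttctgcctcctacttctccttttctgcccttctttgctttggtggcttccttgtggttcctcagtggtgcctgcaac
The LRRC55 window had 58.3% GC and held a TEAD-type motif, and the ITGAM window had 53.3% GC and held a GC box. Both were poor in CpG, with ratios of observed to expected CpG of 0.163 and 0.095.

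Genes of filaments, matrix and proteolysis formed another group. KRT17 encodes a type I keratin of skin appendages and injured epithelium (ENSG00000128422, chr17:41619442-41624842, minus strand). It was at 10.3, 10.0 and 11.2 RPM in shAjuba1, at 0.795, 0.518 and 0.782 RPM in shAjuba2 and at 1.7 and 1.83 RPM in shScrambled. Parental held 1.02 and 1.7 RPM, Control 1.54, 0.632 and 0.911 RPM and Ajuba OE 1.94, 1.54 and 1.91 RPM. The AJUBA hairpin lines were therefore at opposite ends of its range, and the ratio to the nearest line, with 0.1 RPM added to each mean, was 5.59. KRT17 shares long stretches of sequence with other keratin genes and pseudogenes, so its counts are uncertain where reads could match several of them. MMP9, the gelatinase B that cleaves denatured collagen (ENSG00000100985, chr20:46008908-46016561, plus strand), was at 4.27, 3.78 and 5.19 RPM in shAjuba1. It was at 0.718, 0.771 and 0.955 RPM in Ajuba OE, the next highest line, and at 0.233, 0.143 and 0.273 RPM in Control, with a range of 0.143 to 0.955 RPM (median 0.349) in the other 13 samples. OLFML3 encodes a secreted olfactomedin-like glycoprotein (ENSG00000116774, chr1:113979391-114035572, plus strand) and was at 2.49, 2.56 and 3.2 RPM in shAjuba1, against 0.167 to 0.765 RPM (median 0.347) in the other 13 samples.

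CDH23 and SUSD2 encode membrane proteins. CDH23 is the cadherin of the tip links of inner-ear hair cells (ENSG00000107736, chr10:71396920-71815947, plus strand), and it was at 16.5, 13.6 and 17.8 RPM in shAjuba1, against 2.5 to 4.77 RPM (median 3.88) in the other 13 samples. CDH23 overlaps VSIR on the opposite strand, and VSIR was at 28.9 RPM in shAjuba1 against 13.6 to 22.8 RPM, so reads of the overlap are uncertain. SUSD2 encodes a sushi-domain protein of the cell surface (ENSG00000099994, chr22:24181487-24189106, plus strand). It had the highest mean of the 20 higher genes, with 38.1, 34.9 and 41.5 RPM in shAjuba1, 9.59, 12.1 and 11 RPM in shAjuba2 and 5.51 and 5.33 RPM in shScrambled. Parental held 8.78 and 10.4 RPM, Control 5.56, 8.4 and 6.35 RPM and Ajuba OE 1.87, 3.25 and 2.11 RPM. The order of its line means ran from shAjuba1 through shAjuba2, Parental, Control and shScrambled to Ajuba OE.

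Secreted and membrane-bound ligands were a further group. CSF1, the macrophage colony-stimulating factor (ENSG00000184371, chr1:109910242-109930992, plus strand), was at 5.42, 5.28 and 6.21 RPM in shAjuba1 and at 0.786 to 1.63 RPM (median 1.21) in the other 13 samples. CX3CL1 is fractalkine, a chemokine that is made as a membrane-bound adhesion molecule (ENSG00000006210, chr16:57372477-57385044, plus strand). It was at 12.7, 12.8 and 13.9 RPM in shAjuba1, 1.48, 1.22 and 1.42 RPM in shAjuba2 and 3.62 and 3.24 RPM in shScrambled, the next highest line, with a range of 0.958 to 3.62 RPM (median 1.48) in the other 13 samples. GDF7 is a ligand of the bone morphogenetic protein family (ENSG00000143869, chr2:20667144-20679243, plus strand), and its samples were at 2.91, 4.05 and 4.75 RPM, against 0.556 to 1.28 RPM (median 0.947) in the other 13 samples.

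The TNF superfamily contributed 2 higher genes and 1 lower gene. CD70, the ligand of CD27 (ENSG00000125726, chr19:6583183-6604103, minus strand), was at 17.1, 17.1 and 18.1 RPM in shAjuba1 and at 2.54 to 7.03 RPM (median 3.99) in the other 13 samples. TNFSF9, the 4-1BB ligand, lies 47.3 kb from CD70 (ENSG00000125657, chr19:6531026-6535924, plus strand) and was at 7.91, 6.54 and 9.36 RPM, against 1.28 to 3.42 RPM (median 2.07) in the other 13 samples. CD70 had the highest level per length of the 30 genes, with 11.4 RPM per kilobase in shAjuba1. TNFSF10 encodes TRAIL, a ligand that triggers apoptosis through death receptors (ENSG00000121858, chr3:172505508-172523475, minus strand), and it was on the opposite side. It was at 1.19, 1.26 and 1.1 RPM in shAjuba1, at 9.01, 2.61 and 4.65 RPM in shAjuba2 and at 12.9 and 16.6 RPM in shScrambled. Parental held 10.0 and 11.4 RPM, Control 9.58, 8.1 and 9.49 RPM and Ajuba OE 15.7, 9.48 and 15 RPM. Replicates of shAjuba2 were unlike one another for TNFSF10, and replicate 2 was the lowest of the 13 samples outside shAjuba1. NCEH1, which lies 106.8 kb from TNFSF10, encodes a neutral cholesterol ester hydrolase (ENSG00000144959, chr3:172630249-172711218, minus strand). It was at 10.1, 9.92 and 8.31 RPM in shAjuba1, against 29.1 to 57.6 RPM (median 47.9) in the other 13 samples.

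The starts of TNFSF9, TNFSF10 and NCEH1 are printed to compare TNF superfamily genes of opposite direction and the neighbouring pair that was lower. They cover chr19:6530776-6531075, plus strand for TNFSF9, chr3:172523381-172523680, minus strand for TNFSF10 and chr3:172711018-172711317, minus strand for NCEH1, with capitals as before.
TNFSF9: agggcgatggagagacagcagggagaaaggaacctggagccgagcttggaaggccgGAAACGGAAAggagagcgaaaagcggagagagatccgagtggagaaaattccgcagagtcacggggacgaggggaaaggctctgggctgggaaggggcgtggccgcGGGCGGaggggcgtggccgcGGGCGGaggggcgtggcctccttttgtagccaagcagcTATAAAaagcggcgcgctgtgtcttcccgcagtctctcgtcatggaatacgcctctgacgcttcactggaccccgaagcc
TNFSF10: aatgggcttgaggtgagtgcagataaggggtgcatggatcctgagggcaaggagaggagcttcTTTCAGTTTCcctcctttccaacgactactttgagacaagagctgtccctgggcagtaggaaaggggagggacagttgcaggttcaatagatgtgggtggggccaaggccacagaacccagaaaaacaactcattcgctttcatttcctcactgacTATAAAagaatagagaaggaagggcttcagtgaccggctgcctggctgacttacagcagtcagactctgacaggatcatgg
NCEH1: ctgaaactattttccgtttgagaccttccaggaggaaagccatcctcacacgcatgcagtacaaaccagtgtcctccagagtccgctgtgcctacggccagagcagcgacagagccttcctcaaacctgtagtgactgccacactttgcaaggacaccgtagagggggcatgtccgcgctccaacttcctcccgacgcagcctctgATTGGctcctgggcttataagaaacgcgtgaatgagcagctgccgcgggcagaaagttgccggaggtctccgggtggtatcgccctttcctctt
The windows of TNFSF9 and TNFSF10 both held a TATA box and an interferon response type motif, and that of TNFSF9 also a GC box. The NCEH1 window held a CCAAT box. The ratio of observed to expected CpG was 0.964 in the TNFSF9 window and 0.159 in that of TNFSF10, so TNFSF9 and TNFSF10 shared motifs and differed in CpG. The window of LRRC55, a higher gene, had a ratio of 0.163, near that of TNFSF10.

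Receptors, transporters and enzymes followed. CNTFR, the alpha subunit of the receptor for ciliary neurotrophic factor (ENSG00000122756, chr9:34551432-34590140, minus strand), was at 3.35, 3.05 and 3.62 RPM in shAjuba1 and at 0.302 to 0.989 RPM (median 0.698) in the other 13 samples. SLC6A20, a transporter of proline and other imino acids (ENSG00000163817, chr3:45755449-45796574, minus strand), was at 3.5, 3.32 and 3.95 RPM, against 0.453 to 1.02 RPM (median 0.743) in the other 13 samples. IL4I1 encodes a secreted oxidase of aromatic amino acids (ENSG00000104951, chr19:49889654-49929539, minus strand) and was at 4.42, 3.48 and 4.55 RPM, against 0.43 to 1.01 RPM (median 0.723) in the other 13 samples. IL4I1 overlaps NUP62 on the same strand, and NUP62 was far more abundant at 112 RPM in shAjuba1 and 89.6 to 105.8 RPM in the other line means, so reads of the shared stretch are uncertain. CALB2 is calretinin, a calcium-binding protein of neurons (ENSG00000172137, chr16:71358713-71390436, plus strand). It was at 5.46, 5.24 and 5.47 RPM in shAjuba1 and at 1.55, 1.01 and 1.48 RPM in shAjuba2, the next highest line, with a range of 0.388 to 1.55 RPM (median 0.521) in the other 13 samples.

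Regulators of transcription closed the higher group. SERTAD4 encodes a SERTA-domain nuclear protein (ENSG00000082497, chr1:210232796-210246631, plus strand). It was at 25.9, 26.5 and 23.9 RPM in shAjuba1, 4.08, 2.57 and 2.72 RPM in shAjuba2 and 5.32 and 5.05 RPM in shScrambled. Parental held 5.81 and 6.61 RPM, Control 4.51, 4.57 and 5.03 RPM and Ajuba OE 1.35, 1.21 and 1.53 RPM. Ajuba OE was the lowest line for SERTAD4, and the ratio to Parental, the nearest line, was 4.05. An antisense gene, SERTAD4-AS1, overlaps SERTAD4, so reads of the overlap are uncertain. ZNF469 is a zinc finger gene mutated in brittle cornea syndrome (ENSG00000225614, chr16:88382959-88440757, plus strand), and it was at 17.8, 16.6 and 18.2 RPM, against 2.81 to 4.26 RPM (median 3.87) in the other 13 samples. CITED4 encodes a partner of the coactivators CBP and p300 (ENSG00000179862, chr1:40861054-40862363, minus strand). Its shAjuba1 samples were unlike one another at 4.71, 3.02 and 7.09 RPM, against 0.823 to 2.1 RPM (median 1.12) in the other 13 samples.

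**Figure D1:**
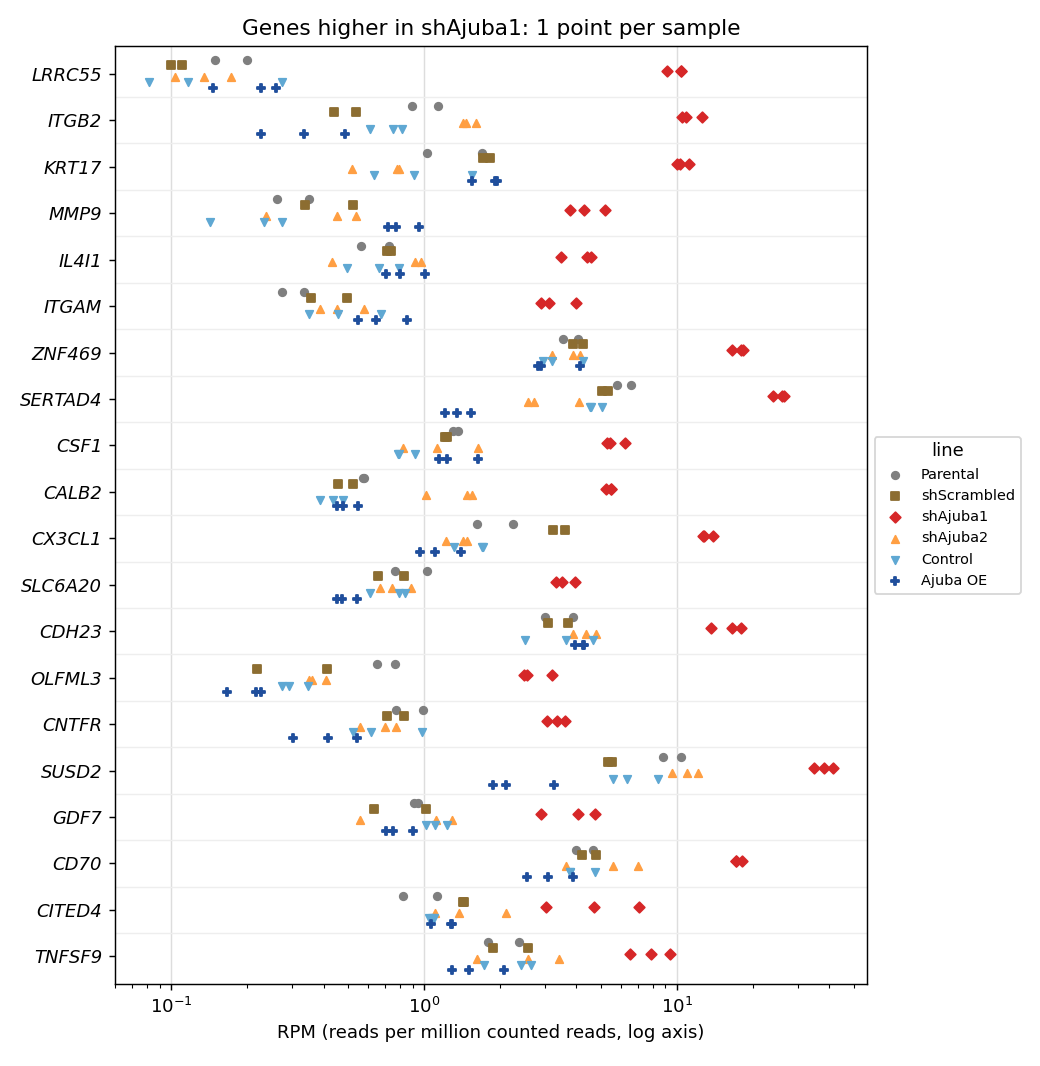
Level of each of the 20 genes that were higher in shAjuba1, in RPM on a logarithmic axis, with 1 point for each of the 16 samples, coloured by line. The 3 shAjuba1 points (red diamonds) lie to the right of all 13 other points in every gene, and for LRRC55 at 9.14 RPM or more against at most 0.273 RPM.

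Among the 10 lower genes, those of signalling and excitable membranes came first. FGF13 encodes an intracellular fibroblast growth factor homologue that binds sodium channels (ENSG00000129682, chrX:138614727-139222777, minus strand). It was at 0.67, 0.996 and 0.80 RPM in shAjuba1, 6.13, 4.17 and 5.8 RPM in shAjuba2 and 14.6 and 14.7 RPM in shScrambled. Parental held 8.98 and 8.83 RPM, Control 10.0, 7.71 and 10.1 RPM and Ajuba OE 9.49, 6.9 and 8.37 RPM. Its shAjuba2 samples were the next lowest, and with 0.1 RPM added to each mean shAjuba1 lay 5.93 times below them. OXGR1, a G-protein-coupled receptor for 2-oxoglutarate (ENSG00000165621, chr13:96985713-96994730, minus strand), was at 0.963, 0.996 and 1.1 RPM in shAjuba1 and at 4.98 to 7.57 RPM (median 6.1) in the other 13 samples. CACNG6, a gamma subunit of voltage-gated calcium channels (ENSG00000130433, chr19:53991637-54012666, plus strand), was at 2.34, 1.99 and 2.82 RPM in shAjuba1, 8.75, 6.6 and 6.98 RPM in shAjuba2 and 19.1 and 19.9 RPM in shScrambled, the highest line. Parental held 7.21 and 7.82 RPM of CACNG6, so shScrambled stood above the unmodified cells.

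The remaining lower genes act in innate defence, ubiquitination, glycosylation and splicing. OAS2 is an interferon-induced synthetase of 2-5A, which activates RNase L (ENSG00000111335, chr12:112978395-113011723, plus strand), and it was at 4.81, 4.02 and 4.25 RPM in shAjuba1 and at 16.9 to 30.3 RPM (median 23.2) in the other 13 samples. RNF128 encodes the ubiquitin ligase GRAIL (ENSG00000133135, chrX:106693794-106797016, plus strand). It was at 0.167, 0.398 and 0.248 RPM in shAjuba1, from 8 reads in the poorest of these samples, and at 1.16 to 3.46 RPM (median 2.18) in the other 13 samples. GALNT5 starts mucin-type O-glycosylation (ENSG00000136542, chr2:157257705-157318491, plus strand). It was at 0.377, 0.265 and 0.497 RPM in shAjuba1, at 1.66, 1.98 and 1.66 RPM in Ajuba OE and at 5.13 and 5.88 RPM in shScrambled, the highest line. VWDE encodes a secreted protein with von Willebrand factor D and EGF domains (ENSG00000146530, chr7:12330885-12403941, minus strand), and it was at 1.7, 1.86 and 1.44 RPM, against 4.8 to 8.88 RPM (median 6.66) in the other 13 samples. MBNL3, a muscleblind regulator of splicing (ENSG00000076770, chrX:132369320-132489968, minus strand), was at 2.03, 1.66 and 1.63 RPM, against 4.69 to 22.1 RPM (median 11.5) in the other 13 samples.

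**Figure D2:**
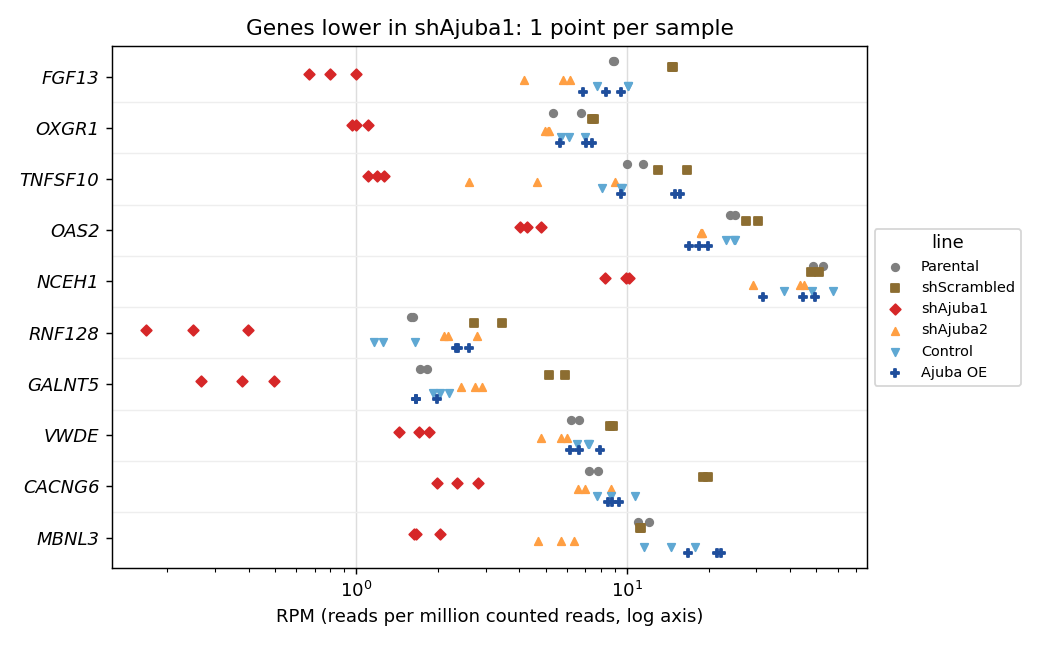
Level of each of the 10 genes that were lower in shAjuba1, in RPM on a logarithmic axis, with 1 point for each of the 16 samples, coloured by line. The 3 shAjuba1 points (red diamonds) lie to the left of all 13 other points in every gene, and shScrambled (brown squares) is the highest line for FGF13, OXGR1, TNFSF10, OAS2, RNF128, GALNT5, VWDE and CACNG6.

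All 30 genes had 3 shAjuba1 samples outside the range of the other 13. Among all 12579 genes, 6.91% had the 3 shAjuba1 samples above and 8.05% below the other 13, and the members' count follows from the rule. The median coefficient of variation over the shAjuba1 samples was 8.97% in the higher genes and 12.7% in the lower ones, against 7.73% in all 12579. The most variable were RNF128 at 43.1% and CITED4 at 41.4%. The other 5 lines also differed among themselves, with a median ratio of highest to lowest line mean of 1.79 in the higher and 2.40 in the lower genes, against 1.39 in all genes. Just inside the limit on the higher side were CITED4 at a ratio of 3.10 and TNFSF9 at 3.05, and just outside were WNT7B at 2.98 and KLK10 at 2.96. On the lower side CACNG6 at 0.329 and MBNL3 at 0.330 were just inside, and ZNF737 at 0.335 and NCAM1 at 0.336 just outside. Without replicate 2 of every line, 22 higher and 21 lower genes met the rule, and 18 and 9 of them were among the 30. Put to each of the other lines, the same rule gave 94 genes for Ajuba OE, 10 for shAjuba2, 8 for shScrambled and 0 for Parental and for Control.

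The comparison of Ajuba OE with Control asks whether these genes move when AJUBA is raised, and it uses no shAjuba1 sample. Both lines are among the 5 that the rule set against shAjuba1, and Ajuba OE was the nearest line for LRRC55, KRT17, MMP9, IL4I1, ITGAM, CSF1, OAS2 and GALNT5, so these values are not free of the choice of genes either. Of the 30 genes, 4 passed edgeR's quasi-likelihood test at an adjusted p under 0.05, against 5.43% of all 21140 genes tested. Of these, 2 rose and 2 fell, beside 2.39% and 3.03% of all genes. SERTAD4 fell with a log2 fold change of -1.73 (SE 0.15, adjusted p = 9.54e-04), from 4.71 ± 0.284 RPM (SD, n = 3) in Control to 1.36 ± 0.163 RPM (SD, n = 3) in Ajuba OE. SUSD2 fell with -1.43 (SE 0.26, adjusted p = 0.0212), and its groups did not overlap. Both were among the genes that were higher in shAjuba1. MMP9 rose with 1.97 (SE 0.31, adjusted p = 0.0115), from 0.216 ± 0.0668 RPM (SD, n = 3) to 0.815 ± 0.125 RPM (SD, n = 3), and was also highest in shAjuba1. RNF128 rose with 0.91 (SE 0.19, adjusted p = 0.033), against its low level in shAjuba1. LRRC55 at 0.49 (SE 0.49, adjusted p = 0.669) and ITGB2 at -0.96 (SE 0.30, adjusted p = 0.135) did not pass. The count was 2 without Ajuba OE replicate 1, Ajuba OE replicate 3 or Control replicate 3, fits that called 2.52%, 2.31% and 1.89% of all genes. It was 4 without replicate 2 of both lines, beside 8.18% of all genes, and 9 when all 16 samples shared 1 estimate of the spread, beside 10.1%.

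The second hairpin was compared with shScrambled, and both lines are among the 5 that the rule set against shAjuba1, so these values are not independent of the choice of genes. In this comparison 29 of the genes could be tested, since LRRC55 was too low, and 12 passed, against 7.63% of all genes tested. Of the higher genes, 3 rose and 2 fell, against 3.19% and 4.44% of all genes. ITGB2 rose with a log2 fold change of 1.55 (SE 0.24, adjusted p = 0.0121), CALB2 with 1.42 (SE 0.28, adjusted p = 0.0269) and SUSD2 with 0.96 (SE 0.17, adjusted p = 0.0171). CX3CL1 fell with -1.36 (SE 0.18, adjusted p = 0.00663) and KRT17 with -1.38 (SE 0.24, adjusted p = 0.0171), although both were at their highest in shAjuba1. Of the lower genes, 7 of 10 fell in shAjuba2 against shScrambled, beside the same 4.44%, and 2 of 10 fell against Parental. The median log2 fold change of the 10 was -0.89 against shScrambled and -0.37 against Parental. The 7 that fell against shScrambled were FGF13 with -1.50 (SE 0.18, adjusted p = 0.00382), CACNG6 with -1.44 (SE 0.15, adjusted p = 0.00272), GALNT5 with -1.08 (SE 0.17, adjusted p = 0.0107) and MBNL3 with -1.06 (SE 0.16, adjusted p = 0.00985), and with smaller changes VWDE, OAS2 and OXGR1. TNFSF10 at -1.50 (SE 0.41, adjusted p = 0.0686) did not pass, with the wide spread of its shAjuba2 samples given above. AJUBA itself, the target of the hairpin, did not pass against shScrambled, at -0.46 (SE 0.13, adjusted p = 0.0773). It passed against Parental, at -0.60 (SE 0.13, adjusted p = 0.0364).

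The number of calls changed with the reference. Against Parental, 4 of 29 genes passed, beside 8.14% of all genes tested, namely SERTAD4 with -1.06 (SE 0.22, adjusted p = 0.0358), CALB2 with 1.16 (SE 0.27, adjusted p = 0.0456), FGF13 with -0.79 (SE 0.18, adjusted p = 0.0456) and MBNL3 with -1.11 (SE 0.16, adjusted p = 0.0144). GALNT5 turned from -1.08 to 0.54 (SE 0.18, adjusted p = 0.0981). The count against shScrambled was 2 without shScrambled replicate 1 and 1 without shScrambled replicate 2, fits that called 0.95% and 0.784% of all genes, so the drop came with a drop over all genes. It was 6 without shAjuba2 replicate 1, beside 2.24%, and 14 without shAjuba2 replicate 2, beside 22.7%.

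The reference lines themselves differed in many genes of the whole series. Between shScrambled and Parental 11 of 29 of the genes described here (37.9%) passed, near the 30.7% of all genes tested. Of the lower genes 7 of 10 passed, all of them higher in shScrambled, where 15% of all genes tested were called higher. Of the higher genes 4 of 19 passed, 1 higher and 3 lower, where 15.6% of all genes tested were called lower. This comparison and that of shAjuba2 share the shScrambled samples. Parental and shScrambled are among the lines that the rule set against shAjuba1, so these shares are not independent of the choice of genes. GALNT5 was higher in shScrambled with a log2 fold change of 1.63 (SE 0.17, adjusted p = 1.59e-07) and CACNG6 with 1.37 (SE 0.11, adjusted p = 9.68e-10). OLFML3 was lower with -1.23 (SE 0.36, adjusted p = 0.0121), ITGB2 with -1.06 (SE 0.30, adjusted p = 0.00921) and SUSD2 with -0.83 (SE 0.13, adjusted p = 4.39e-05). For ITGB2 and SUSD2, the shScrambled mean was thus below that of the unmodified cells and the means of both AJUBA hairpin lines above it, although the SUSD2 samples of shAjuba2 and Parental overlapped. In shAjuba2 against Parental neither gene passed, with ITGB2 at 0.48 (SE 0.22, adjusted p = 0.173) and SUSD2 at 0.12 (SE 0.17, adjusted p = 0.614). In shScrambled against Parental the count was 7 of 25 genes tested with DESeq2, beside 26.4% of all genes. It also fell when a sample was left out, but such a fit leaves 1 sample in a line.

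**Figure D3:**
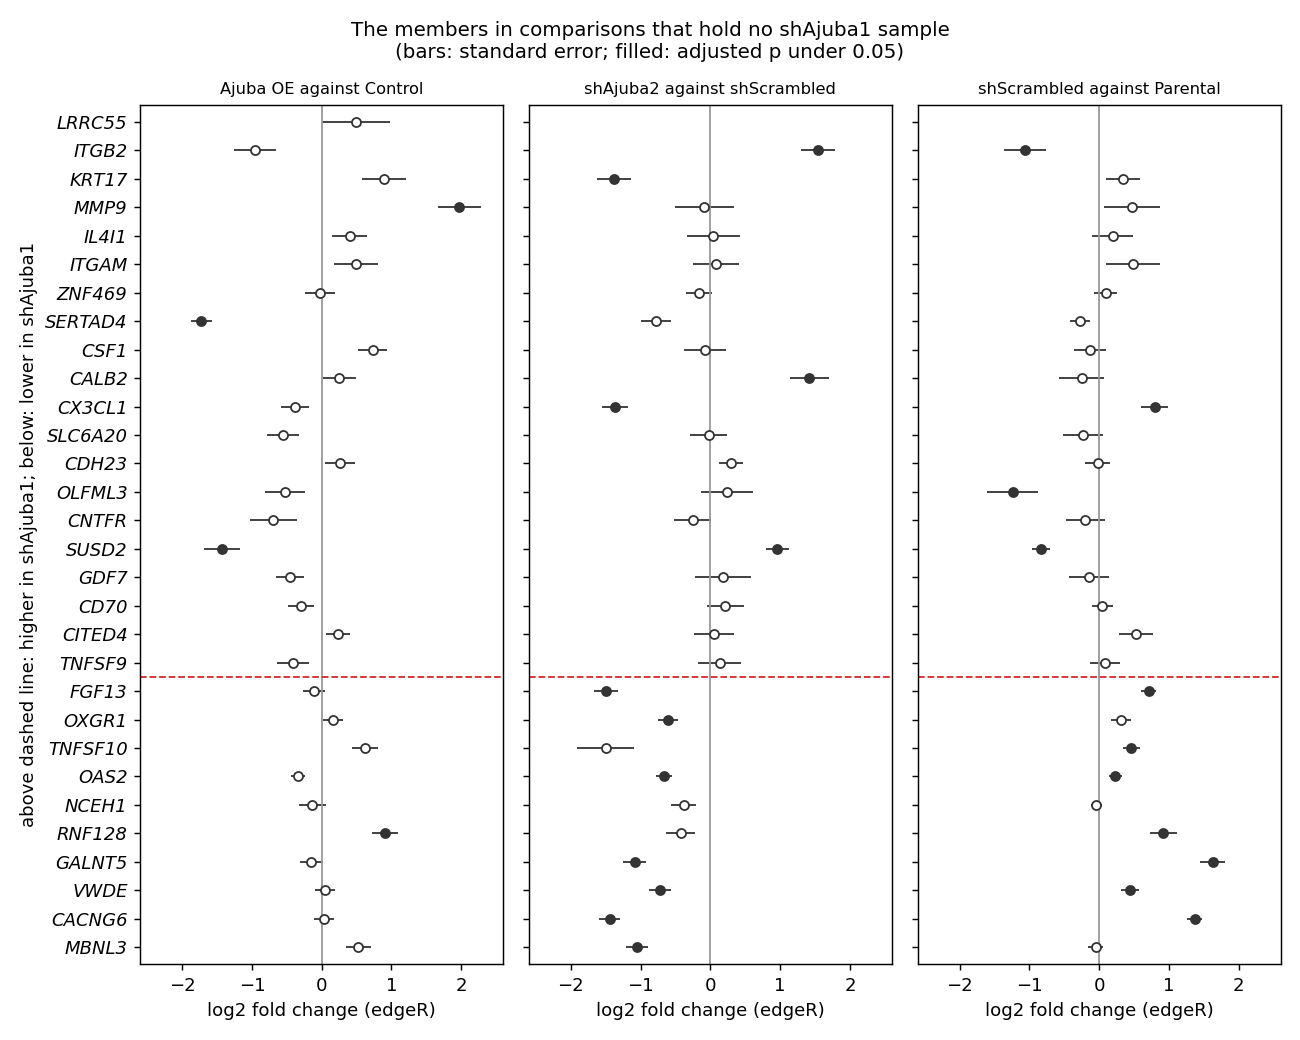
Log2 fold change with its standard error for the 30 genes in Ajuba OE against Control, shAjuba2 against shScrambled and shScrambled against Parental, with filled points at an adjusted p under 0.05. The filled points number 4, 12 and 11, and LRRC55 has no point in the middle and right panels because it was too low to test.

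Where the genes lie was not used by the rule. Chromosome 16 held 4 of the 20 higher genes (CX3CL1, CALB2, ZNF469 and ITGAM) and 4.63% of the 12579 genes, and the X chromosome held 3 of the 10 lower genes (FGF13, RNF128 and MBNL3) and 3.31% of the genes. Some neighbours lay on the side of the member and others on the opposite side. Beside KRT17, KRT13, a keratin of internal stratified epithelia, was at 38.7 RPM in shAjuba1 against 66.6 to 278 RPM, and JUP, the junction protein plakoglobin, at 47.3 RPM against 90.3 to 109 RPM, although KRT17 itself was at its highest there. ITGAX, the CD11c subunit that also pairs with CD18, lies 22.2 kb from ITGAM and was at 4.01 RPM in shAjuba1 against 0.861 to 1.99 RPM in the other line means. Beside SUSD2, GGT5 was at 14.5 RPM against 1.37 to 8.86 RPM and the pseudogene POM121L9P at 4.38 RPM against 0.252 to 0.776 RPM. LINC01547 next to ITGB2 was at 11.2 RPM against 1.51 to 3.70 RPM, and SERTAD4-AS1, which overlaps SERTAD4 on the opposite strand, at 7.17 RPM against 0.659 to 2.79 RPM. The strand setting of the counting is not given, so reads of the SERTAD4 overlap are uncertain. On the lower side TBC1D8B, 5.66 kb from RNF128, was at 2.11 RPM against 3.55 to 14.4 RPM. OAS1, beside OAS2, was at 1.28 RPM against 2.18 to 5.14 RPM. LRRC55 had 11 neighbours within 500 kb with a median ratio of 1.09 to the mean of the other lines, and 0 of them reached 2-fold. Over all members, 3.51% of the 342 neighbours of higher genes were at least 2-fold above the other lines, against 1.97% of all genes at 1 RPM or more, and 2.63% were at 0.5-fold or less, against 3.03%. Of the 63 neighbours of lower genes, 12.7% were at 0.5-fold or less, against the same 3.03%, and 0 were 2-fold above. Other members were left out of these shares, and a gene beside several members of a direction was counted once. Genes close together are not independent, so these shares are a description.

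**Figure D4:**
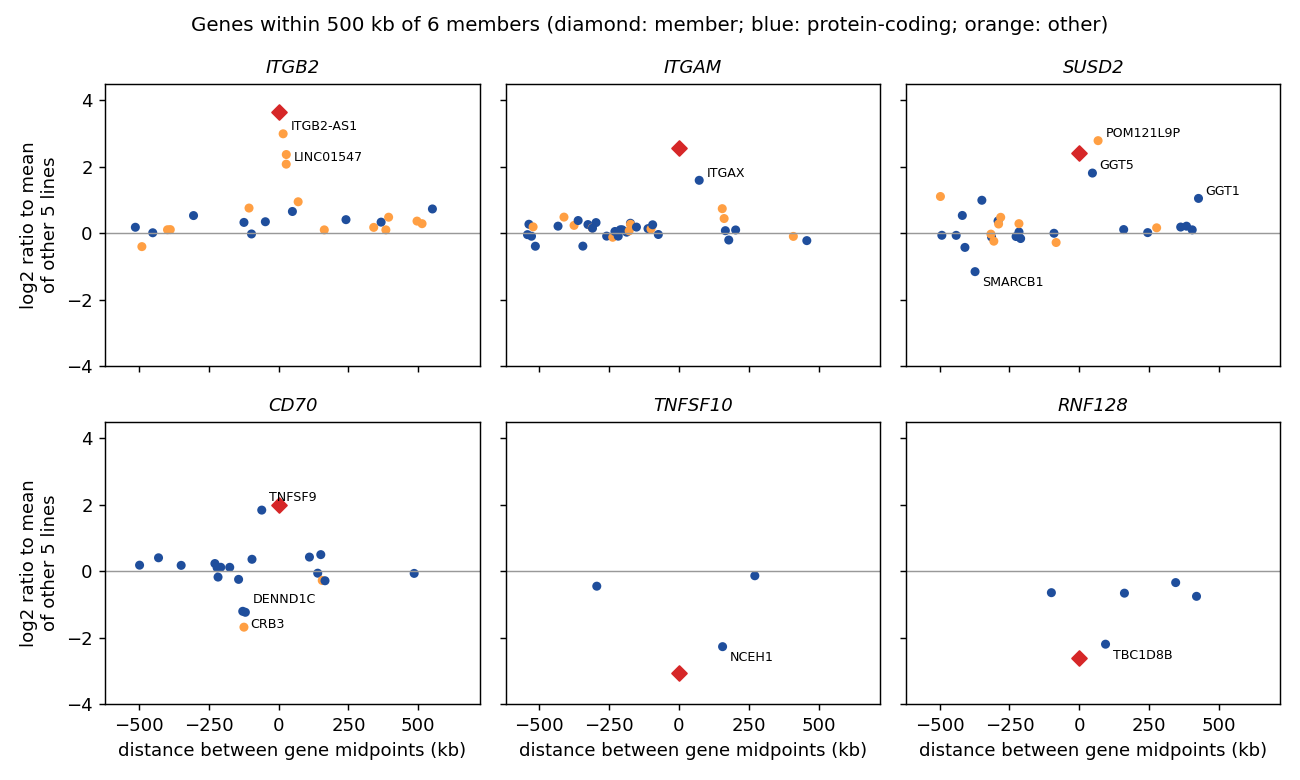
Ratio of the shAjuba1 mean to the mean of the other 5 lines (log2) for genes within 500 kb of 6 members, against the distance between gene midpoints in kb. Most neighbours lie near 0, and CRB3 and DENND1C beside CD70 and SMARCB1 beside SUSD2 lie on the opposite side, while ITGB2-AS1 and LINC01547, ITGAX, GGT5 and POM121L9P, TNFSF9, NCEH1 and TBC1D8B lie on the side of the member beside them.

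The RefSeq table held start regions for 11 of the 20 higher genes (14 windows) and 8 of the 10 lower genes (13 windows), and for 10228 of all genes that reached 2 RPM (15024 windows). CSF1, CX3CL1, CALB2, ZNF469, KRT17, CD70, MMP9, ITGB2, SUSD2, OAS2 and GALNT5 were not matched. A ratio of observed to expected CpG below 0.6 was found in 42.9% of the higher and 46.2% of the lower windows, against 24.3% of all windows. The TATA box TATAAA was in 38.5% of the lower windows, those of TNFSF10, RNF128, MBNL3 and FGF13, against 7.14% of the higher and 6.18% of all. The GC box was in 64.3% of the higher, 30.8% of the lower and 66.6% of all windows, and the CCAAT box in 14.3%, 23.1% and 34.5%. TEAD-type motifs were in 14.3%, 7.69% and 11.5%, interferon response type motifs in 7.14%, 7.69% and 2.65%, and AP-1 motifs in 0, 7.69% and 5.17%. Several windows belong to 1 gene, and a match is a description of letters, not a site.

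Of the 32 gene lists written for these pathways, 9 held at least 1 of the 30 genes, and 14 of the 30 were in a list. Of 18 integrin genes that reached 2 RPM, 2 were members, 7 had shAjuba1 above all other line means and 9 below. Over all 12579 genes these shares were 20.9% and 22.6%. ITGB6, an epithelial integrin subunit, was at 0.762 RPM in shAjuba1 against 1.24 to 3.43 RPM, so the integrins did not share a direction. Of 20 interferon response genes, OAS2 was a member, 10 were below and 1 above all other line means, with a median log2 ratio to the mean of the other lines of -0.33 against 0.0014 in all genes. SAMD9, another interferon-induced gene, was at 2.22 RPM against 3.51 to 9.69 RPM, whereas RIGI, a sensor of viral RNA, was at 13.5 RPM against 7.81 to 10.4 RPM. Of 74 growth factors and cytokines, 3 were higher and 2 lower members, with 17 above and 16 below all other lines.

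Since ITGB2, ITGAM and CSF1 are known from leukocytes and stroma, markers of other cell types were counted beside them. The 9 leukocyte markers summed to 4.17 to 5.02 RPM in the shAjuba1 samples and to 4.82 to 8.62 RPM in the other 13. PTPRC, which encodes the pan-leukocyte antigen CD45, was at 0 RPM in all 3 shAjuba1 samples, where a count of 0 allows up to 0.0996 RPM, CD68 was at 0.551 RPM on average and CD14 at 1.40 RPM. LYZ was at 0.702 RPM in shAjuba1 and at 1.17 to 3.31 RPM in the other line means. The 9 fibroblast markers summed to 18.5 to 22.8 RPM in shAjuba1 and to 6.34 to 37.8 RPM elsewhere, and the 6 endothelial markers to 2.53 to 3.39 RPM and 2.46 to 5.66 RPM.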

How the data were processed

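Poly(A) RNA of 16 samples was sequenced as paired-end reads from stranded libraries. The authors aligned the reads to GRCh38 with HISAT2 and deposited raw counts per gene from featureCounts, 66023 genes in all. The versions, the annotation and the strand setting are not given in the sources used here. Samples were grouped by line from the labels. Gene types and positions came from GENCODE 44, whose identifiers matched 56434 genes, which hold 99.8% of the counts.

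RPM were computed as counts over the column total. Members and gene lists were chosen with earlier results of these data known. Differences outside shAjuba1 were tested with edgeR 4.0.16 (R 4.3.3) on the samples of the lines compared, with filterByExpr, TMM and the two-sided quasi-likelihood test, and p-values were adjusted by Benjamini-Hochberg over all genes tested. Standard errors were obtained as the size of the log2 fold change over the root of F. The fit was tested on simulated data. DESeq2 1.42.0, other scalings and filters, a replicate block and leaving out each sample were the alternatives. Named genes were AJUBA, the 15 members per direction with the largest ratios, members in a list, called in another comparison, near a threshold or beside another member, and in the end all 30 members. Neighbours and list genes outside the 30 were named after their values were seen. Total counts per sample ran from 30132396 to 69684675. The median chi-square between replicates of a line was 1.87 to 14.3 times that of counting noise, so none was a duplicate. Promoter sequences came from RefSeq (GRCh38.p14). Proteomic and functional data were not analysed here.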

Additional observations from a re-analysis of the deposited data

Results flagged for a closer look

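KRT17, SERTAD4 and CX3CL1 lay on opposite sides of shScrambled in the AJUBA hairpin lines, with every shAjuba1 sample above and every shAjuba2 sample below both shScrambled samples. The difference between the hairpin lines was not tested, since the shAjuba1 values chose the genes. KRT17 was at 10.5 ± 0.585 RPM (SD, n = 3) in shAjuba1, 0.699 ± 0.156 RPM in shAjuba2 and 1.76 ± 0.0904 RPM (n = 2) in shScrambled. SERTAD4 was at 25.5 ± 1.34, 3.12 ± 0.836 and 5.18 ± 0.193 RPM in the same order, and CX3CL1 at 13.1 ± 0.689, 1.37 ± 0.14 and 3.43 ± 0.269 RPM. AJUBA was at 50.1 RPM in shAjuba1 and 62.0 RPM in shAjuba2. Against shScrambled in edgeR's test, KRT17 and CX3CL1 passed in shAjuba2 with log2 fold changes of -1.38 and -1.36, whereas SERTAD4 did not pass, at -0.78 (SE 0.22, adjusted p = 0.0742).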

How the results depend on the processing

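The 20 higher genes became 8 with a pseudocount of 1 RPM, 12 with a minimum of 5 RPM, 67 at a fold of 2, 3 at a fold of 5 and 12 when every shAjuba1 sample had to pass against every other sample, and they numbered 17 to 22 when a shAjuba1 replicate was left out. The 10 lower genes became 4 with a pseudocount of 1 RPM, 16 with 0.01 RPM, 76 at a fold of 2, 1 at a fold of 5 and 3 with every sample, 8 to 14 without a shAjuba1 replicate, and 21 (9 of the 10 among them) without replicate 2 of every line. Without shAjuba1 replicate 3, GDF7, CITED4, TNFSF9, VWDE and MBNL3 no longer met the rule. With TMM or DESeq2 size factors 20 and 9 genes passed, CACNG6 and MBNL3 were lost and ZNF737 was gained.

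In Ajuba OE against Control the count of 4 became 9 with all 16 samples in 1 fit, 2 to 4 with a sample left out, and 4 without replicate 2 of both lines, an alternative chosen after seeing the data. The fit of all 16 samples called 14 of the genes in shAjuba2 against shScrambled, beside 15.6% of all genes. In shScrambled against Parental it called 8 of them, beside 7.19% of all genes. In shAjuba2 against shScrambled the count of 12 became 1 to 14 with a sample left out and 4 with Parental as the control, also chosen after seeing the data, where GALNT5 reversed to 0.54. In shScrambled against Parental the count of 11 among 29 genes tested became 7 among 25 with DESeq2. It also fell with a sample left out, but such a fit leaves 1 sample in a line. For single genes with a call, 42 values kept their call and 10 lost it in the first comparison, 103 and 40 in the second with 1 reversal, and 86 and 23 in the last. The cause of these changes was not tested.

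With the replicate number as a block the counts were 9, 15 and 10, beside 24.3%, 24.0% and 25.4% of all genes. Without the block these shares of all genes were 5.43%, 7.63% and 30.7%. Same-numbered samples had correlations of 0.163, 0.616 and -0.0474 between Ajuba OE and Control in their deviations from the line means, 0.0837 and 0.214 between shAjuba2 and shScrambled, and -0.0811 between shScrambled and Parental. In these comparisons 2 of 6, 3 of 5 and 0 of 4 samples correlated best with their own number. The comparisons with shScrambled held only 2 pairs each, and with 2 samples per line the correlations of shScrambled and Parental must be equal. These correlations therefore cannot decide whether same-numbered samples belong together. The labels name no shared batch, so the numbers were not taken as pairs in the main fits. Depth limits RNF128 and GALNT5, which had as few as 8 reads in a shAjuba1 sample.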

Other observations

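Among 2123 genes of other types that reached 2 RPM in a line, 6 met the same rule, 4 higher and 2 lower in shAjuba1. ITGB2-AS1 (23.7, 22.8 and 31.5 RPM in shAjuba1, and 6.63 RPM on average in shAjuba2) and the pseudogene POM121L9P (4.33, 3.55 and 5.24 RPM) lie beside the members ITGB2 and SUSD2. UCA1, a long non-coding RNA first described in bladder cancer, was at 7.93, 8.40 and 8.58 RPM in shAjuba1 and at 1.02 to 2.10 RPM in the other line means. FAM30A, another long non-coding RNA, was at 2.34, 3.09 and 3.73 RPM against 0.161 to 0.748 RPM. The pseudogenes ZNF818P and SLC66A1L were lower, at 0.342 ± 0.152 and 0.978 ± 0.142 RPM (SD, n = 3) against 1.35 to 2.00 and 3.33 to 4.43 RPM. These genes were not tested, because the same values chose them.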
